A study of Rattus norvegicus with 18 samples.

Results

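The transcripts followed here encode the machinery of the IRE1 and ATF6 branches of the unfolded protein response (UPR), the program that cells switch on when misfolded proteins collect in the endoplasmic reticulum (ER). They are the sensors IRE1α (Ern1), ATF6α (Atf6) and ATF6β (Atf6b), the proteases S1P (Mbtps1) and S2P (Mbtps2), and the transcription factors Xbp1 and Creb3l2. Members were the array probe sets that the platform annotation gives to exactly 1 of these 7 genes, which yielded 7 probe sets for 6 genes, among 31042 probe sets and 14217 named genes in all. No probe set was annotated to Ern1 (chr10:91826663-91920976 in the rat assembly GRCr8) alone, so its transcript was not analysed here. Atf6 had 2 probe sets and each other gene had 1.

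IRE1 is a kinase and endoribonuclease in the ER membrane. When activated it cuts an intron out of the Xbp1 mRNA, and the spliced message encodes the active factor. ATF6 is a membrane-bound transcription factor that leaves the ER in COPII vesicles under stress, is cut in the Golgi first by S1P and then by S2P, and sends its cytosolic fragment to the nucleus. Creb3l2, also called BBF2H7, is a relative of ATF6 in the OASIS family and is released by the same proteases. Both branches raise chaperones, oxidoreductases and degradation components, and pancreatic beta cells rely on them because they make proinsulin in bulk. An array signal measures total transcript. It reads neither Xbp1 splicing nor cleavage of ATF6 or Creb3l2, which is how these proteins are mainly switched on.

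The arrays came from clone #4S2, a single clone of INS-1 cells, a rat insulinoma line, in which doxycycline induces proinsulin C96Y fused to GFP. In this Akita mutant a cysteine that forms a disulfide bond of insulin is replaced. The 6 groups were cells given doxycycline at 2 µg/ml, harvested after 24 h, after 48 h and after 5 days, and untreated control cells of the same clone at each time. There were 3 arrays in each group, from 3 independent experiments, and all groups carry the transgene. No array of doxycycline on cells without the transgene was used here, so on these arrays the drug and the mutant protein cannot be told apart. The paper states, with results not shown, that the same doxycycline concentration changed neither Grp78 (Hspa5) nor Chop (Ddit3) in a parental INS-1 line. That statement names none of the members. The same-numbered doxycycline and control arrays of a time were treated as a pair. An experiment number below is the replicate number in the sample label. The labels do not say whether the same number at different times is the same experiment.

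Signals below are normalized signals in linear units after quantile normalization, and fold changes are on the log2 scale, doxycycline minus control. A probe set was called when its limma p-value, adjusted by Benjamini-Hochberg over the 15521 probe sets in the brighter part of the array, was under 0.05. Of the 7 member probe sets, 5 were bright enough to be tested. The second Atf6 probe set and that of Creb3l2 had mean log2 signals of 6.66 and 6.45, below the filter at 6.93. Dimmer signals carry more noise, so these 2 probe sets are described without a test. Levels of different probe sets were not compared with each other.

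The 5-day pair of experiment 1 and the doxycycline library of experiment 2 at 5 days stood apart from the rest. Over the 546 probe sets called at 48 h, the log2 ratios of the 5-day pair of experiment 1 correlated at -0.812 with the mean 48 h ratios, against 0.345 and 0.905 for experiments 2 and 3, so this pair, as labelled, ran against the others. The library labelled doxycycline, 5 days, experiment 2, had a GAPDH 3'/5' ratio of 2.91, a measure of RNA integrity that lay between 1.05 and 1.19 on the other 17 arrays, and the lowest median signal, 91.2 against 113.3 to 138.5. Of 10 beta-cell markers 8 had a probe set, all above the filter, whereas 0 of 6 acinar markers and 2 of 7 fibroblast markers (Thy1 and Pdgfra) were above it. Mafa, a beta-cell transcription factor, was the only 1 of the 8 tested beta-cell markers to pass at 48 h, and it fell (-1.07, adjusted p = 0.0118). The other 7 did not pass, and 2 of the 8 had positive values. When the 24 h and 48 h arrays were fitted together, 3 of the 8 fell at 48 h. Of the 15521 tested probe sets, 734 were called lower at 48 h in that joint fit and 185 in the main fit. Glucagon (Gcg), the alpha-cell hormone, also fell at 48 h (-2.71, adjusted p = 0.00669) and was the only marker of other islet cells above the filter. Summed beta-cell markers ran from 86698 to 98726 on the 48 h doxycycline arrays and from 96087 to 107242 on the controls. In bulk RNA, fewer cells of a type and less RNA per cell cannot be told apart, and the part of these markers in the results below was not tested.

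ATF6 and XBP1 are known to act through short motifs in the promoters of UPR genes, so the promoters of the members were read first. RefSeq windows of 300 bases (assembly GRCr8, 250 bases before to 50 after the start site) were given for 5 of the 7 genes, those of Xbp1, Atf6b, Mbtps1, Mbtps2 and Creb3l2. Only that of Xbp1 held one of the ER stress motifs searched on both strands. It holds the ER stress response element (ERSE), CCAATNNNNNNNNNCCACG, to which ATF6 binds together with NF-Y and which was found in 22 of 33469 promoter windows (0.0657%). The window lies at chr14:84604373-84604672 on the plus strand and is shown because Xbp1 is both a member here and a reported ATF6 target. Capitals mark the CCAAT and CCACG parts of the element, whose first base lies at -65 from the start site.
Xbp1 promoter window: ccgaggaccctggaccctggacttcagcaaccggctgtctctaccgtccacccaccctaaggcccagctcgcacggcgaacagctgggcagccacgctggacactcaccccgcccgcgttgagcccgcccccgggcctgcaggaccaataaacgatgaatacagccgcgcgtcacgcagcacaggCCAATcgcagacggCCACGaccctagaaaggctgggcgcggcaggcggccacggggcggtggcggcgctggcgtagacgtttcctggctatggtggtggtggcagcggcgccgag

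The other motifs were ERSE-II (ATTGG, then CCACG after 1 base, in 0.0508% of windows), the UPR element (TGACGTGG, 0.595%) and the cAMP response element (TGACGTCA, 1.83%), and none occurred in the 5 member windows. The CCACG of an ERSE or ERSE-II and the UPR element share letters when read on opposite strands. Of 15 windows of the reported ATF6 targets listed below, Xbp1 included, 7 held an ERSE. The following ERSE sites, 12 bases on either side, allow Xbp1 to be set beside the other targets, with the strand turned so that CCAAT leads and with capitals as above. Each position is that of the element's most upstream base relative to the gene, which is the CCACG end where the element runs opposite to the gene (Calr, Creld2 and the second site of Hsp90b1).
Xbp1, chr14:84604546-84604588 (plus strand), most upstream base at -65: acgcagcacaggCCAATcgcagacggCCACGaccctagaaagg
Hspa5, chr3:38452961-38453003 (plus strand), most upstream base at -43: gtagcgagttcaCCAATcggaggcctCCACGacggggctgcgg
Calr, chr19:40213123-40213165 (minus strand), most upstream base at -232: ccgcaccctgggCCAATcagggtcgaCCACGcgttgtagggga
Dnajc3, chr15:102432522-102432564 (plus strand), most upstream base at -133: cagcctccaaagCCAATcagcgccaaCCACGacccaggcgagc
Creld2, chr7:121789227-121789269 (minus strand), most upstream base at -145: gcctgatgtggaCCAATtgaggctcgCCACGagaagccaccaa
Hsp90b1, chr7:23012439-23012481 (minus strand), most upstream base at -176: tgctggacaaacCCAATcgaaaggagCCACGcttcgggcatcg
Hsp90b1, chr7:23012335-23012377 (plus strand), most upstream base at -72: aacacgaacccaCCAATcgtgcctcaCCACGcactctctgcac

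Among the 7 targets with an ERSE, Derl3 has no probe set of its own. At 48 h Hspa5, Calr, Dnajc3, Creld2 and Hsp90b1 rose by 0.67, 0.65, 1.26, 1.37 and 0.51. All 5 passed the test, where 2.33% of all tested probe sets were called higher. Xbp1, with the same element, stood at 0.15 (adjusted p = 0.36). Targets without an ERSE passed too. Herpud1 and Hyou1, whose windows held an ERSE-II and no ERSE, rose by 1.80 and 0.88. Whether an ERSE goes with a rise was not tested. A motif match is a description of the letters, and factor binding was not measured.

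**Figure D1:**
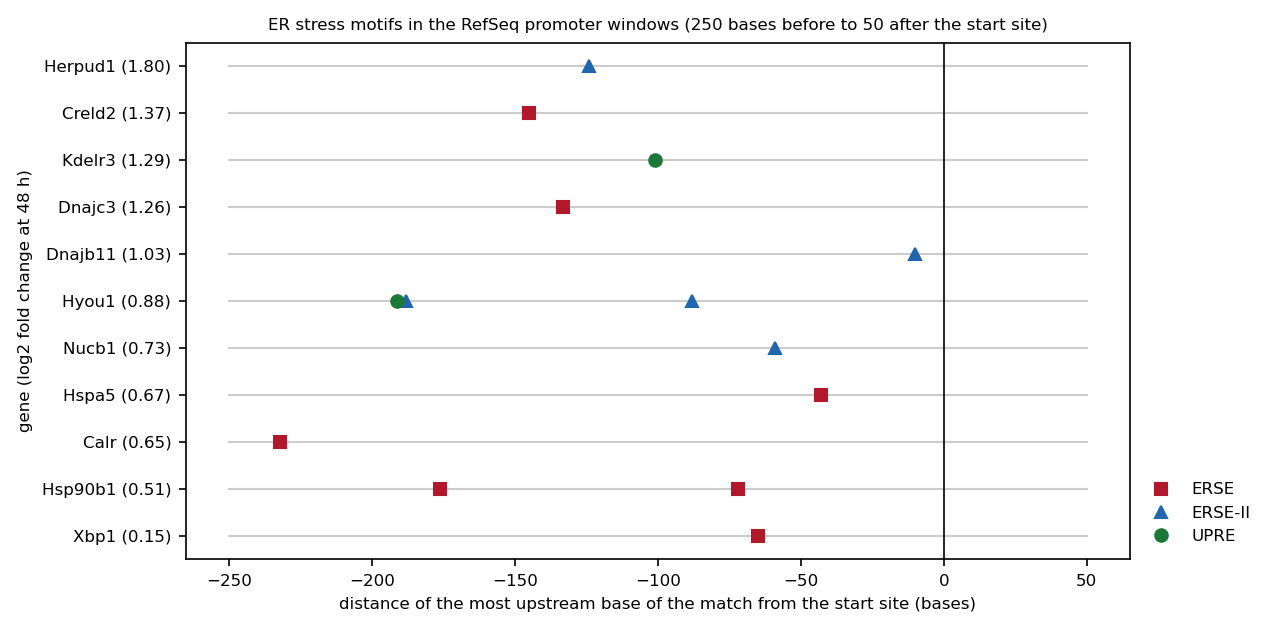
Position of ERSE (squares), ERSE-II (triangles) and UPR element (circles) matches in RefSeq promoter windows of Xbp1 and listed pathway genes, as distance of the most upstream base from the start site (x axis, bases), with genes ordered down the y axis by log2 fold change at 48 h. Xbp1 (0.15) holds an ERSE at -65 and stands last of the 11 genes, while Hspa5 (0.67) holds an ERSE at -43.

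Atf6 was the member with the largest difference between doxycycline and control cells at 24 h and at 48 h. Its brighter probe set, 1392475_at, gave 669, 734 and 718 with doxycycline at 24 h in experiments 1, 2 and 3, against 600, 558 and 521 in the controls. Every doxycycline array lay above every control array. The log2 fold change was 0.34 (SE 0.09, 95% interval 0.12 to 0.56), and the adjusted p was 0.204.

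At 48 h the signals of Atf6 were 756, 927 and 846 with doxycycline and 570, 560 and 467 in the controls. The groups again did not overlap, and the means were 843 ± 85.5 and 532 ± 56.5 (SD, n = 3 each). The ratio was 1.33, 1.66 and 1.81 in the 3 experiments, 1.6 ± 0.247 on average. The log2 fold change of 0.66 (SE 0.11, 95% interval 0.38 to 0.95) ranked 245 from the top of 15521, and its adjusted p of 0.0507 narrowly missed the threshold. Fitting the 24 h and 48 h arrays together, where 5.64% of probe sets were called higher at 48 h, brought it to 0.0122, and over the 14 alternatives it ran from 0.0122 to 0.414 and passed in 4. The effect at 48 h exceeded that at 24 h by 0.33 (SE 0.15, adjusted p = 0.741), so the larger value at 48 h was not distinguished from that at 24 h.

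The second Atf6 probe set, 1384957_at, was dim, and at 24 h and 48 h its groups did not separate as those of the first did. At 24 h it gave 139, 125 and 92.0 with doxycycline and 119, 129 and 104 in the controls. At 48 h it gave 149, 63.8 and 121 with doxycycline and 144, 67.5 and 76.6 in the controls. The groups overlapped at both times, and the log2 ratios at 48 h were 0.05, -0.08 and 0.66. The sources used here do not state where either probe set lies on the Atf6 transcript. The gene has 4 transcripts in RefSeq (GRCr8, chr13:85460312-85639959).

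Atf6b encodes the paralogue of ATF6α, which is cleaved by the same proteases and is known as a weaker activator (chr20:4095534-4103534). Its signals at 24 h were 656, 783 and 879 with doxycycline and 640, 669 and 827 in the controls. Each experiment was slightly higher with doxycycline, but the groups overlapped, at 0.12 (SE 0.08, adjusted p = 0.535), or 0.06 without experiment 2. At 48 h the signals were 891, 969 and 956 with doxycycline, against 723, 843 and 800 in the controls, and the groups did not overlap. The ratio was 1.19 ± 0.0416 and the log2 fold change 0.25 (SE 0.07, 95% interval 0.07 to 0.44, adjusted p = 0.118). This is a narrow spread around a small difference, and it did not pass the test.

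Neither protease transcript passed the test at 24 h or 48 h. Mbtps1 (S1P, chr19:64470245-64521438) gave 1053, 1103 and 1066 with doxycycline at 24 h and 1095, 1178 and 1082 in the controls. At 48 h it gave 1096, 1069 and 1099 with doxycycline and 1032, 1127 and 1145 in the controls. The groups overlapped at both times, with log2 fold changes of -0.06 (95% interval -0.23 to 0.12, adjusted p = 0.75) and -0.02 (95% interval -0.21 to 0.18, adjusted p = 0.92). Across the 9 controls its highest signal was 1.27 times its lowest, the narrowest range among the members.

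Mbtps2 (S2P, chrX:41225956-41290030) varied more between experiments than between treatments. At 24 h it gave 789, 840 and 553 with doxycycline and 820, 675 and 530 in the controls. At 48 h it gave 705, 517 and 625 with doxycycline and 559, 557 and 567 in the controls. The log2 fold changes were 0.11 (95% interval -0.13 to 0.35, adjusted p = 0.656) and 0.12 (95% interval -0.15 to 0.40, adjusted p = 0.53). Leaving out 1 experiment gave 0.00 to 0.19 at 24 h and 0.02 to 0.24 at 48 h.

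Xbp1 (chr14:84604623-84609707) showed a small and even shift at 24 h that did not pass the test. Its signals were 7480, 6999 and 6729 with doxycycline and 6366, 5857 and 5790 in the controls, and the groups did not overlap. The ratios of 1.18, 1.19 and 1.16 lay close together, 1.18 ± 0.0165 on average, and the log2 fold change was 0.24 (SE 0.07, 95% interval 0.06 to 0.41, adjusted p = 0.235).

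At 48 h Xbp1 gave 6653, 6303 and 6571 with doxycycline and 5885, 6344 and 5429 in the controls. Here the groups overlapped, since experiment 2 was level, and the log2 fold change was 0.15 (SE 0.09, 95% interval -0.08 to 0.37, adjusted p = 0.36). Without experiment 2 it was 0.23 and without experiment 3 it was 0.08. The 48 h effect minus the 24 h effect was -0.09 (adjusted p = 0.904).

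Creb3l2 (chr4:66874623-66990962) was dim throughout. At 24 h it gave 96.1, 98.4 and 73.8 with doxycycline and 107, 78.9 and 95.9 in the controls, with experiments in both directions. At 48 h it gave 105, 69.4 and 96.5 with doxycycline and 79.2, 55.0 and 74.4 in the controls. All 3 experiments were higher with doxycycline, at ratios of 1.32, 1.26 and 1.3, while the groups overlapped. Higher values in 3 of 3 pairs were found for 17.0% of all 31042 probe sets at 48 h. When dim probe sets were kept, the log2 fold change of 0.37 had an adjusted p of 0.368.

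**Figure D2:**
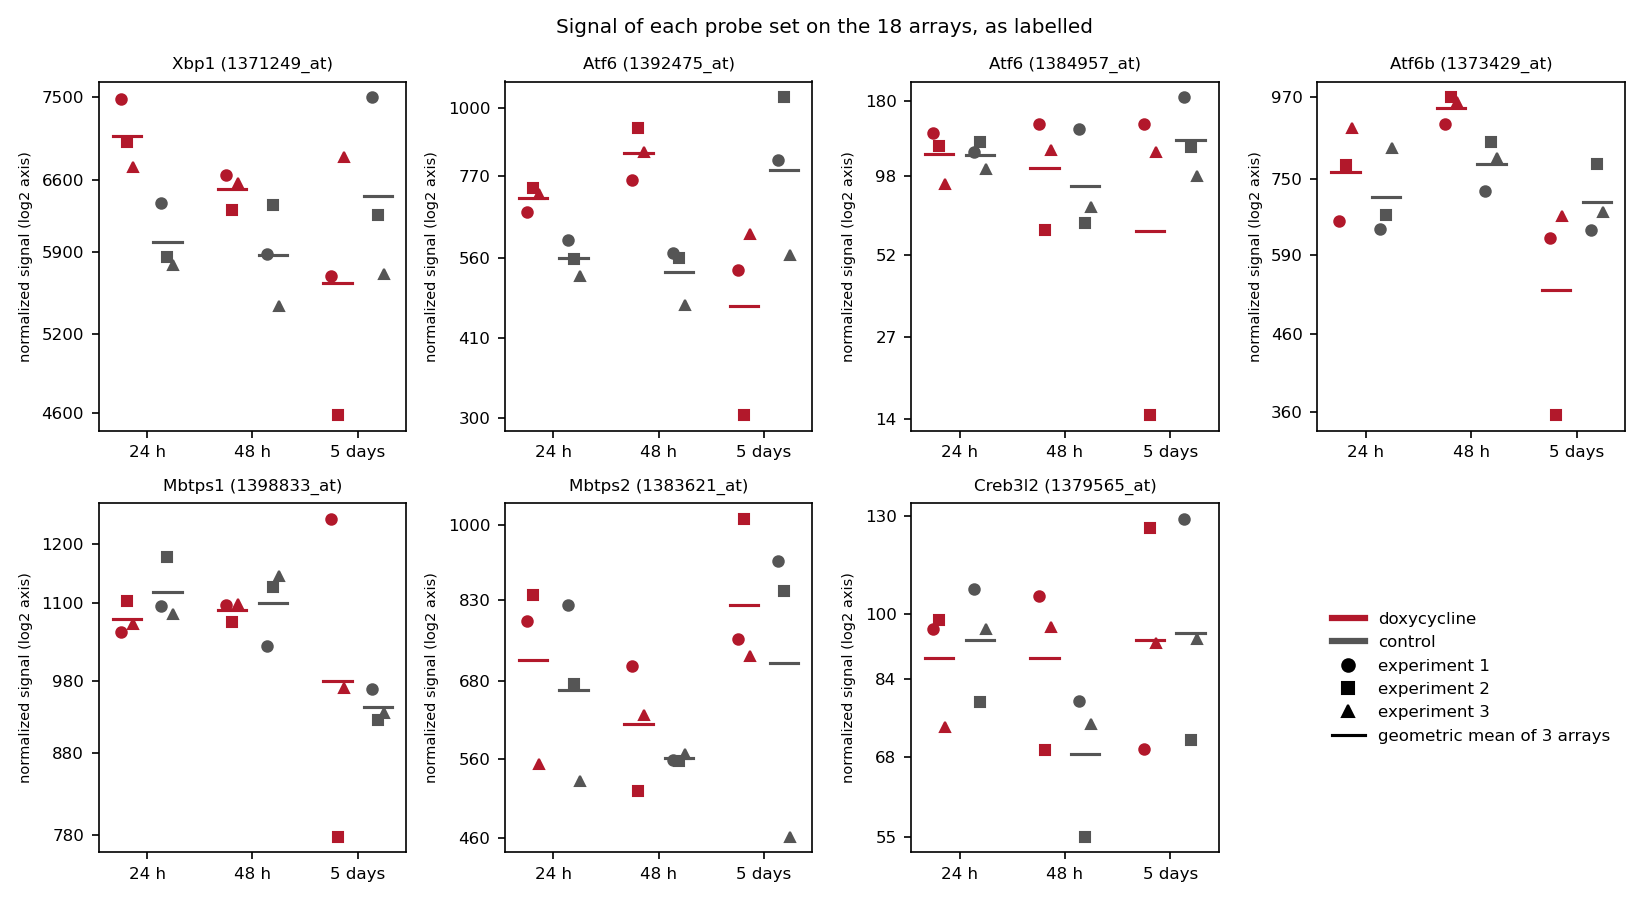
Normalized signal (y axis, log2 scale, linear units) of the 7 member probe sets on each of the 18 arrays by time (x axis), doxycycline in red left of control in grey. Symbols mark the experiment and bars the geometric mean of 3 arrays. Atf6 (1392475_at) with doxycycline lies above the controls at 24 h and 48 h, and in experiment 2 of 5 days it reads 304 with doxycycline.

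In counts, 0 of the 5 tested member probe sets passed at 24 h, where 0.206% of all tested probe sets did, and 0 of 5 passed at 48 h, where 3.52% did. At an unadjusted p under 0.05, limma gave 2 of 5 at 24 h (Xbp1 and Atf6), where 7.75% of tested probe sets were that far higher, and 2 of 5 at 48 h (Atf6 and Atf6b), where 12.2% were. The methods' t-test also gave 2 of 5 higher at each time before adjustment, where 3.13% of tested probe sets were at 24 h and 8.14% at 48 h, and 0 after it, as 0.0% and 1.04% in either direction. Doxycycline arrays lay wholly above the controls for 2 of 5 at 24 h and for 2 of 5 at 48 h, against 5.03% and 11.3% of all tested probe sets. No member reached a ratio of 2 or fell to 0.5 in 2 or more experiments, a size rule met upwards by 0.29% and 0.509% and downwards by 0.0709% and 0.187% of tested probe sets at 24 h and 48 h. For the 48 h effect minus the 24 h effect, 0 of 5 members passed, as for 0.0% of all, and 0 of 5 had an unadjusted p under 0.05, where 6.67% of all did.

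**Figure D3:**
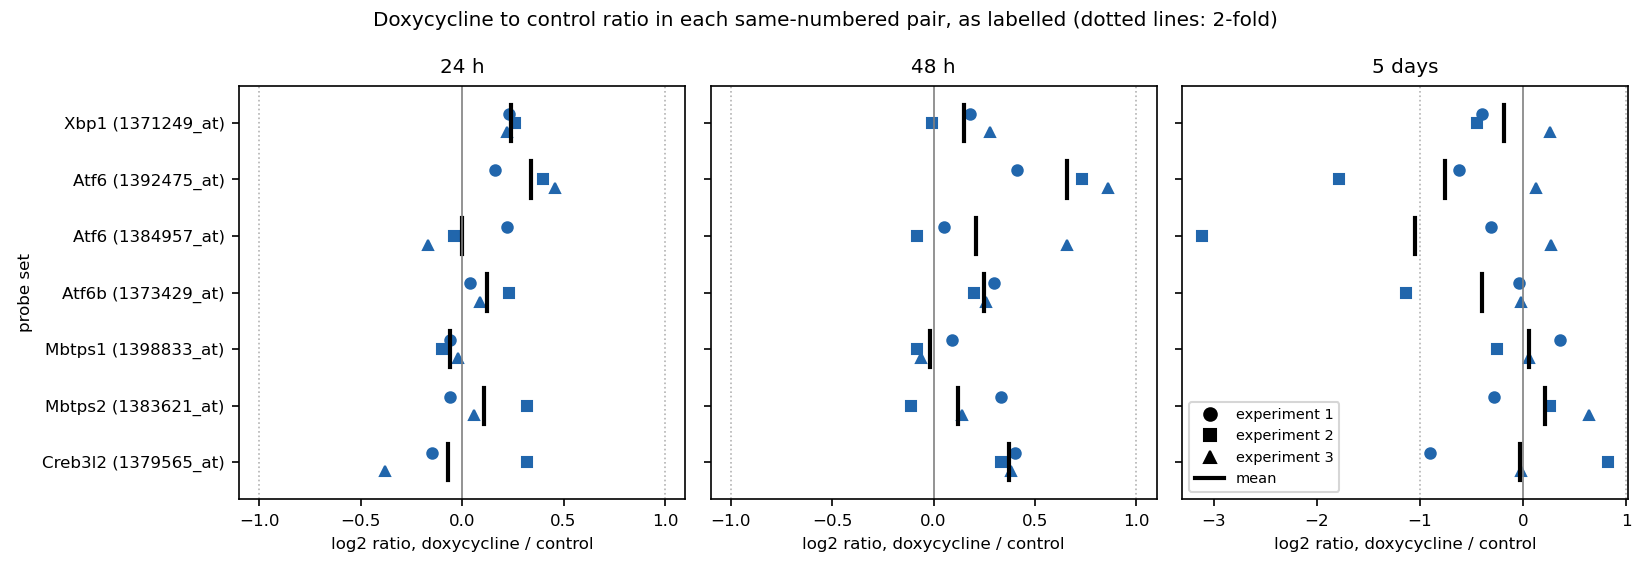
Log2 ratio of doxycycline to control (x axis) in each same-numbered pair for the 7 member probe sets (y axis) at the 3 times, with symbols for the experiments and black bars for the mean. Xbp1 lies between 0.22 and 0.26 at 24 h and Atf6 (1392475_at) between 0.41 and 0.86 at 48 h, while at 5 days, where the x axis is wider, the pairs of Atf6 run from -1.78 to 0.12.

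At 5 days the 3 pairs disagreed, and the mean of a member depended on the pair. Atf6 (1392475_at) gave 535, 304 and 615 on the libraries labelled doxycycline and 820, 1044 and 567 on those labelled control, with log2 ratios of -0.62, -1.78 and 0.12. The mean of -0.76 (adjusted p = 0.935) became -0.25 without experiment 2, whose doxycycline library had the GAPDH ratio of 2.91, -0.35 when the experiment 1 labels were exchanged and -1.20 without experiment 3 (adjusted p = 0.998). The dim Atf6 probe set read 14.4 on the doxycycline library of experiment 2, against 124 on its control, a log2 ratio of -3.11. Its ratios in experiments 1 and 3 were -0.31 and 0.27, so the pairs had the same signs and order as in the brighter probe set.

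Atf6b gave 622, 357 and 668 on the libraries labelled doxycycline at 5 days and 639, 787 and 676 on those labelled control. The log2 ratios were -0.04, -1.14 and -0.02, so that the mean of -0.40 (adjusted p = 0.935) became -0.03 without experiment 2, -0.58 without experiment 1 and -0.59 without experiment 3. All 3 member ratios of 0.5 or less at 5 days, those of Atf6b and of both Atf6 probe sets, were from experiment 2. No member met the size rule, which 0.296% of tested probe sets met upwards and 0.438% downwards.

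Xbp1 gave 5687, 4589 and 6832 on the libraries labelled doxycycline at 5 days and 7496, 6250 and 5702 on those labelled control. Its log2 ratios were -0.40, -0.45 and 0.26, and the mean of -0.19 (adjusted p = 0.935) became 0.07 when the experiment 1 labels were exchanged, -0.09 without experiment 1, -0.07 without experiment 2 and -0.42 without experiment 3. With arrays centred on their medians in place of quantile normalization, it was 0.14, while the median over all tested probe sets moved to 0.24 (0.03 with quantile normalization). The control library of experiment 1, at 7496, read as high as the brightest 24 h doxycycline array.

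Mbtps1 had log2 ratios of 0.36, -0.25 and 0.06 and Mbtps2 of -0.28, 0.26 and 0.64 at 5 days, and Creb3l2 of -0.90, 0.82 and -0.02. In experiment 3, whose ratios ran like those at 48 h, Xbp1 stood at 0.26, Atf6 at 0.12 and 0.27, Atf6b at -0.02, Mbtps1 at 0.06 and Mbtps2 at 0.64. Limma called 0 of 5 members, as 0.0% of all tested probe sets, and 0 of 5 had an unadjusted p under 0.05, where 1.11% of tested probe sets were that far higher and 1.37% lower. The methods' t-test gave the same counts of members, with 1.15% of tested probe sets higher and 0.683% lower before adjustment.

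The order of the group means for Atf6 (1392475_at) was 843 with doxycycline at 48 h, 810 in the 5-day controls, 707 with doxycycline at 24 h, 560 in the 24 h controls, 532 in the 48 h controls and 485 with doxycycline at 5 days. The 5-day controls alone spread from 567 to 1044 and overlapped every other group. The last 3 groups overlapped one another, while doxycycline at 24 h lay above the 24 h controls. For Xbp1 the order was 7069 with doxycycline at 24 h, 6509 with doxycycline at 48 h, 6483 in the 5-day controls, 6004 in the 24 h controls, 5886 in the 48 h controls and 5703 with doxycycline at 5 days. After quantile normalization, doxycycline at 24 h lay above doxycycline at 48 h on every array. The deposited signals of these 2 groups overlapped, at 6702, 6689 and 6873 for 24 h and 6782, 6656 and 6884 for 48 h. The difference between these groups was not tested. In the normalized signals, the neighbours from the second to the last overlapped. Over the 9 controls the SD of log2 signal was 0.14 for Xbp1 and 0.36 for Atf6, beside a median of 0.22 over all tested probe sets.

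Over the 9 log2 ratios, the genes whose pattern was most like that of Atf6 were Eprs1 (uncentred correlation 0.991), the glutamyl-prolyl-tRNA synthetase, Pigy (0.985) and Cdip1 (0.978). They are named after their values were seen, since Atf6 did not pass the test, and the 9 ratios share the 5-day experiment 2 pair in which Atf6 was at -1.78.

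Many reported targets of both branches rose. The target lists were compiled from reported targets and some of their genes were picked by the study from these same arrays, so their direction is not independent evidence. The XBP1 and ATF6 lists share Dnajc3, Creld2 and Edem1, so their counts are not separate readings of the branches. Dnajc3 and Creld2 passed at 24 h and 48 h and are counted in both lists. Of the 17 tested reported XBP1 targets, 5 rose and none fell at 24 h, and 11 rose and none fell at 48 h, where 0.193% and 2.33% of all tested probe sets rose. Their median log2 fold change was 0.56 at 24 h and 0.67 at 48 h, against -0.01 for all tested probe sets at both times. Bhlha15, the secretory-cell factor MIST1, gave 798, 915 and 1133 with doxycycline at 48 h and 265, 394 and 365 in the controls. Its rise of 1.48 (SE 0.11, adjusted p = 0.0137) was the largest of the list, followed by Creld2 (1.37), Dnajb9 (ERdj4, an HSP40 co-chaperone of the ER, 1.30) and Kdelr3 (a KDEL receptor that returns chaperones to the ER, 1.29).

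Of the 15 tested reported ATF6 targets, a list that holds Xbp1 itself, 4 rose at 24 h and 12 at 48 h, with medians of 0.87 and 1.05, and none fell. Sdf2l1, an ER chaperone component, gave 7621, 7364 and 7569 with doxycycline at 48 h against 2201, 1826 and 2229 in the controls, a rise of 1.86 (SE 0.08, adjusted p = 0.00669). Herpud1, part of the ER-associated degradation machinery, gave 3086, 2718 and 2418 with doxycycline at 48 h and 951, 666 and 752 in the controls (1.80). Ddit3 (CHOP), the pro-apoptotic factor that is also a target of the PERK branch, rose by 1.76. The 3 that did not pass at 48 h were Syvn1 (0.66, adjusted p = 0.0623), Edem1 (0.25) and Xbp1 (0.15). All calls of both lists at 24 h were lost when any 1 experiment was left out, and at 48 h 0 to 2 XBP1 targets and 0 to 4 ATF6 targets then passed. When dim probe sets were kept, 0 targets passed at either time.

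**Figure D4:**
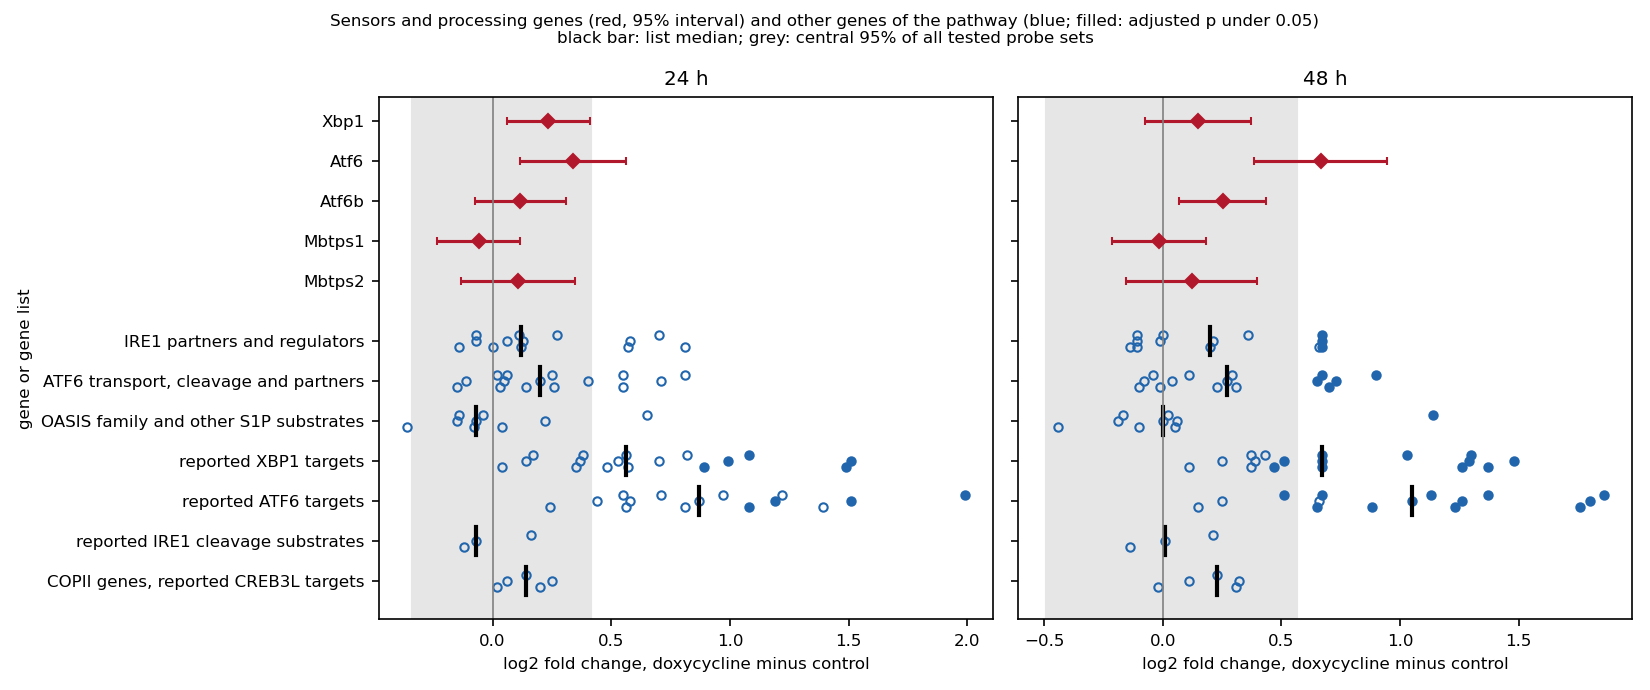
Log2 fold change, doxycycline minus control (x axis), at 24 h and 48 h for the 5 tested member genes (red diamonds, 95% intervals) and for other genes of the pathway by list (y axis, blue circles, filled where adjusted p was under 0.05, black bars for the median). The reported ATF6 targets have medians of 0.87 at 24 h and 1.05 at 48 h, and Atf6 stands at 0.34 and 0.66 and Xbp1, also drawn in that list, at 0.24 and 0.15.

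Among partners of the sensors, chaperones and a translocon subunit rose. Of 13 tested IRE1 partners and regulators, Hspa5, Sec61a1 and Pdia6 rose at 48 h, where 2.33% of all tested probe sets did, and 0 passed at 24 h. Sec61a1 and Pdia6 are also in the XBP1 target list and Hspa5 in the ATF6 target list, so these calls repeat those above. Hspa5 and Pdia6 are among the genes that the study listed as induced from these same arrays, so their direction is not independent evidence. Its selected list gives both at 5 days only, by a 2-fold rule. The paper states that its arrays missed an early Grp78 rise that real-time PCR detected. At 24 h limma gave 5 of 13 and the methods' t-test 3 of 13 higher at an unadjusted p under 0.05, and 0 lower by either. Of all tested probe sets, 7.75% and 3.13% were that far higher. Hspa5 (BiP, GRP78), the chaperone that holds IRE1 and ATF6 inactive, gave 23710, 23254 and 22278 with doxycycline at 48 h and 14430, 14239 and 14957 in the controls, a rise of 0.67 (SE 0.07, adjusted p = 0.0263). Sec61a1, the translocon channel subunit, and Pdia6, a disulfide isomerase reported to act on IRE1, also stood at 0.67. Rtcb, the ligase that joins the Xbp1 exons, stood at -0.01 (adjusted p = 0.95). The list median was 0.12 at 24 h and 0.20 at 48 h.

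Of 15 genes for ATF6 transport, cleavage and partners, 5 rose at 48 h, where 2.33% of all tested probe sets did, and 0 passed at 24 h. At an unadjusted p under 0.05, limma gave 8 and the methods' t-test 5 higher at 24 h, beside 7.75% and 3.13% of all. The medians were 0.20 at 24 h and 0.27 at 48 h. The 5 were Pdia5 (0.90), a disulfide isomerase reported to act on ATF6, Nucb1 (0.73), reported to restrain S1P cleavage of ATF6, Erp44 (0.70), a retrieval chaperone, Hspa5 (0.67) and Calr (0.65), an ER lectin chaperone. Hspa5 and Calr are also in the ATF6 target list and are counted there too. Hspa5 and Erp44 are among the genes that the study listed as induced from these same arrays, at 5 days only in its selected list. The NF-Y subunits Nfya, Nfyb and Nfyc stood at -0.10, -0.01 and -0.04 at 48 h. Of 5 COPII genes reported as targets of the CREB3L family, 0 passed at either time. At an unadjusted p under 0.05, limma gave 1 at 24 h and 3 at 48 h higher, where 7.75% and 12.2% of all tested probe sets were. The methods' t-test gave 0 and 1, where 3.13% and 8.14% of all were. Here Sec31a, Sar1a and Sar1b had the largest values, 0.32, 0.31 and 0.23 at 48 h. When the 24 h and 48 h arrays were fitted together, 2 of these, Sec31a and Sar1a, passed at 48 h, where 5.64% of all tested probe sets were called higher.

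Among 9 tested relatives, other S1P substrates and regulators, Creb3l1 (OASIS) was the only one to pass, at 48 h, where 2.33% of all tested probe sets rose. It gave 457, 627 and 652 with doxycycline and 240, 303 and 241 in the controls, a rise of 1.14 (SE 0.12, adjusted p = 0.024), and its 24 h value was 0.65 (adjusted p = 0.2). Gnptab, a Golgi phosphotransferase that S1P activates, stood at -0.44 (adjusted p = 0.116), Insig2 at -0.19 and Srebf1, the sterol regulatory factor, at -0.17. At 24 h 0 of 9 passed, and at an unadjusted p under 0.05 limma gave Creb3l1 higher and Gnptab lower and the methods' t-test 0. Of the 15521 tested probe sets, limma gave 1203 that far higher and 1077 lower at 24 h, and the methods' t-test 486 and 293. The list median was -0.07 at 24 h and 0.00 at 48 h. This list, called S1P substrates below, also holds Scap, Insig1 and Insig2, which are not themselves S1P substrates. Among reported IRE1 cleavage substrates 3 of 7 with a probe set were bright enough to test, Hgsnat (0.21 at 48 h), Bloc1s1 (-0.14) and Pmp22 (0.01), and 0 passed at either time. At an unadjusted p under 0.05 limma gave 0 of these 3 higher at 24 h and 1 at 48 h, and the methods' t-test 1 and 0. Of all tested probe sets, limma gave 7.75% and 12.2% higher at these times, and the methods' t-test 3.13% and 8.14%. The calls in these lists were lost at 48 h when any 1 experiment was left out and when dim probe sets were kept.

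Eif2ak3 encodes PERK, the third sensor of the ER membrane. At 24 h it gave 733, 855 and 1010 with doxycycline and 520, 646 and 641 in the controls (0.52, adjusted p = 0.0945). At 48 h it gave 1067, 915 and 1095 with doxycycline and 632, 414 and 581 in the controls, a rise of 0.94 (SE 0.10, adjusted p = 0.0242) with no overlap. Without any 1 experiment its adjusted p at 48 h ran from 0.0957 to 0.14. It was 0.0507 without the replicate block, 0.175 by the methods' t-test and 0.375 in all 18 arrays. With the filter at the 25th percentile it was 0.217, and with no filter 0.344, or 0.0636 in the joint fit of 24 h and 48 h. Eif2ak3 passed in the filtered joint fit (0.00325), with median centring (0.0123), without quantile normalization (0.0185), without the floor (0.0242) and normalized without the 5-day arrays (0.0245). Whether its change differed from that of Atf6 was not tested.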

How the data were processed

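Affymetrix rat arrays, 18 in all and 3 per group, had been hybridized with labelled RNA of clone #4S2. The authors deposited linear signal intensities, already scaled, with 2% trimmed means per array of 500.14 to 500.17. The sources used here do not name the program that computed them, and no detection calls were used. The 57 control probe sets among 31099 were removed. The platform annotation named 1 gene for 20826 probe sets, several for 436 and none for 9780, and 20758 of the first kind were found in the RefSeq gene table. Intensities were quantile normalized over the 18 arrays, raised to the 10th percentile (5.99) where lower, and converted to log2. Probe sets in the upper 50 percent by mean log2 signal, 15521 in number, were tested with limma (version 3.58.1, R 4.3.3) on the 6 arrays of a time, with the pair as a block and Benjamini-Hochberg adjustment. The difference between 48 h and 24 h used their 12 arrays. Pairing was taken from the per-experiment ratios of the study's methods. After subtraction of the group mean, paired arrays correlated at 0.109 to 0.667. The fits were also run on simulated data with planted changes and normal noise, which checks the code and not the calls in these arrays. Among 153 comparisons of arrays, 0 had identical values. The number of arrays limits the precision.

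Members and lists were chosen with earlier results of these data known. All members are named, as are the 4 genes of each list with the largest change at 48 h, Eif2ak3, and the 3 genes most like a member that passed. Other genes fall outside this rule and were chosen once values were known, namely those with an ERSE, the remaining genes that passed in a list of few calls or did not pass in a list of many, Rtcb, the NF-Y subunits, the marker genes Mafa, Gcg, Thy1 and Pdgfra, and Eprs1, Pigy and Cdip1, the genes most like Atf6, which did not pass. Where a listed gene had several probe sets, the brightest on average stood for it. RefSeq windows were searched for motifs on both strands. Alternatives were other normalizations and filters, the block, the arrays fitted together, the methods' t-test, each experiment left out, and, for 5 days, exchanged labels of experiment 1. Normalization without the 5-day arrays and the joint fit of 12 arrays without a filter were added after seeing the data.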

Additional observations from a re-analysis of the deposited data

Results flagged for a closer look

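Atf6b (1373429_at) was higher with doxycycline in every pair at 24 h (0.04, 0.23 and 0.09) and at 48 h (0.30, 0.20 and 0.26), and lower in every pair at 5 days (-0.04, -1.14 and -0.02), as labelled. At 48 h 17.0% of all 31042 probe sets were higher in 3 of 3 pairs. The 5-day ratios of experiments 1 and 3 were nearly level. Exchanging the labels of the experiment 1 pair, which ran against the others, turns its -0.04 positive. The 5-day mean lay 0.52 below that of 24 h (difference -0.52) and 0.65 below that of 48 h (difference -0.65). In the limma fit of all 18 arrays neither difference passed, with adjusted p-values of 0.637 and 0.478. Without experiment 2, whose 5-day doxycycline library had the GAPDH ratio of 2.91, the 5-day mean was -0.03, and these differences were not tested with that experiment left out. Atf6 (1392475_at) differed by more than Atf6b in the same fit, by -1.10 from 24 h (adjusted p = 0.629) and -1.42 from 48 h (adjusted p = 0.425).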

How the results depend on the processing

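The cause of each change below was not tested. Atf6 passed at 48 h, so that 1 of 5 members passed in place of 0, in the joint fit of the 24 h and 48 h arrays (adjusted p = 0.0122), with arrays centred on their median (0.0305), without quantile normalization (0.0376) and, added after seeing the data, with normalization without the 5-day arrays (0.0499). Members of the other comparisons stayed on their side of the threshold. Without the replicate block Atf6 at 48 h had an adjusted p of 0.0534, and calls over all probe sets were 208 higher and 67 lower at 48 h and 0 at 24 h, against 361 and 185 and 30 and 2 with the block. Without it 3 genes of ATF6 transport, cleavage and partners rose at 48 h (5 with the block) and 0 targets at 24 h. Tested on all 31042 probe sets, on those above the 25th percentile or in all 18 arrays together, 0 probe sets and 0 list genes passed at 24 h and 48 h. The joint fit of 12 arrays called 169 higher and 45 lower at 24 h and 876 and 734 at 48 h, with 13 XBP1 and 11 ATF6 targets at 24 h (5 and 4 in the report) with 3 IRE1 partners and 5 genes of ATF6 transport at 24 h (0 and 0) and 5 and 7 at 48 h (3 and 5). Without a filter the joint fit called 44 higher and 23 lower at 48 h, among them 6 XBP1 targets, 5 ATF6 targets, 1 gene of ATF6 transport, 0 IRE1 partners and 0 S1P substrates, and 0 targets at 24 h. Centring on medians gave 62 and 10 at 24 h, with 7 XBP1 targets, 6 ATF6 targets, 2 IRE1 partners and 2 genes of ATF6 transport. The methods' t-test gave 0 at 24 h and 121 and 41 at 48 h, among them 7 XBP1 targets, 6 ATF6 targets, 3 genes of ATF6 transport and 0 S1P substrates. Leaving out 1 experiment gave 0 at 24 h and 0 to 29 higher at 48 h, with 0 to 2 XBP1 targets, 0 to 4 ATF6 targets and 0 in the other lists. Averaging all probe sets of a gene moved the medians of the XBP1 targets to 0.48 at 24 h and 0.51 at 48 h (0.56 and 0.67) and of the S1P substrates to 0.04 at 24 h (-0.07). Directions reversed for Mbtps1 at 48 h without experiment 2 or 3 (0.01 in both, lowest over experiments -0.07) and at 5 days, where Mbtps1 was -0.19 with exchanged labels in both fits and -0.10 to 0.21 without 1 experiment, Mbtps2 -0.01 to 0.45 without 1 experiment, and Xbp1 0.14 with median centring and 0.07 with exchanged labels. With exchanged labels in all 18 arrays, 284 probe sets were higher and 141 lower at 5 days, against 0 as labelled. Signals near the filter, as for Creb3l2, limit the precision of the ratios.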
